A study of Homo sapiens with 22 samples.

Results

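MTBP carries a C-terminal region that the deltaC form lacks, and both forms were compared here peak by peak at 29848 MTBP peaks, all of the 29858 in the deposited list that lie on chromosomes 1 to 22 and X. The other 10 lie on Y. The cells were DLD-1, an established human colorectal adenocarcinoma line. In the line called WT below, the genotype is MTBP-mAID/MTBP-WT-FLAG, so a full-length MTBP with a FLAG epitope stands beside MTBP with a degron tag (mAID); in the line called deltaC it is MTBP-mAID/MTBP-deltaC-FLAG, with a C-terminally truncated MTBP carrying the epitope and the same degron-tagged partner. Both lines were profiled by CUT&RUN with a FLAG antibody, which releases the DNA at sites the antibody marks by tethering a nuclease there, in 3 libraries each. Only the tagged copy is therefore seen, and the degron-tagged copy without FLAG is not. Whether each line is a single clone is not given in the sources used here. The list holds 1 pooled signal value per peak and line, so there is no spread between libraries, no test between the lines and no p-value. Libraries of the untagged parent (MTBP-mAID/MTBP-mAID) and of control IgG were not analysed here.

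MTBP is the partner of Treslin (TICRR). Together they act at licensed origins, where they help to bring CDC45 and GINS to the loaded MCM helicase when a cell enters S phase, so that replication can start. The C-terminal part of MTBP has been described as able to bind DNA, and a truncation asks which of the sites occupied by the full-length protein need it.

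For each peak the ratio was log2((deltaC + 1)/(WT + 1)), called the deltaC/WT ratio below. A ratio of -1 is deltaC signal at 0.5 of the WT signal. How the authors scaled the WT and deltaC columns against each other is not given in the sources used here. The level of the ratio rests on that scaling. Differences between groups of peaks hardly change with it if it was 1 factor per column. An adjustment that differed between peaks would change them too, and whether there was one is not given. The rule for including a peak did not use the ratio, but 28971 of the peaks bear names that begin with WT and 877 names that begin with deltaC. The highest peak number in a name is 64475 for WT and 39694 for deltaC, so the list is a selection from larger numbered sets. A peak named for a line had to be found in that line, and its ratio leans that way by the choice.

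The promoters at the ends of the range show what kinds of sequence the ratio spans. Among peaks at or above the median of mean signal that contain a RefSeq promoter window of a protein-coding gene (GRCh38.p14, the assembly of hg38), those with the lowest and the highest ratios are printed here, each as the 250 bases before the start site, with CpG dinucleotides in capitals. The first 3 had the lowest ratios and the last 3 the highest.

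QTGAL: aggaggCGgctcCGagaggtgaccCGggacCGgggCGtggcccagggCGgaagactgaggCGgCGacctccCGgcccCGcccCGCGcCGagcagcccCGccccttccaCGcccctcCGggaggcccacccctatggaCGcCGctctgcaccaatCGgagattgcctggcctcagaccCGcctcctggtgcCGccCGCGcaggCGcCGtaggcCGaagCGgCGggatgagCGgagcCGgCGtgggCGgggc
TBCD: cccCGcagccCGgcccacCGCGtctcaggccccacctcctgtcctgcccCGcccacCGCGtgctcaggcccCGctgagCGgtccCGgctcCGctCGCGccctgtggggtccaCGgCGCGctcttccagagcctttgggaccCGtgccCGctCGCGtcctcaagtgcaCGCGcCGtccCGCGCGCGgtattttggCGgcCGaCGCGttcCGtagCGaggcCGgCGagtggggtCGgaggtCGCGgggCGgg
MIDN: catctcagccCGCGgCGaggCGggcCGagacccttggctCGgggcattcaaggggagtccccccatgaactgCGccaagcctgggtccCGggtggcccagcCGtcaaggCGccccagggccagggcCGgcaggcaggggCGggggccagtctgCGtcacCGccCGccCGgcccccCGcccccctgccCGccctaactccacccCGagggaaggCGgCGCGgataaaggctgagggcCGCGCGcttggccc
MYCN: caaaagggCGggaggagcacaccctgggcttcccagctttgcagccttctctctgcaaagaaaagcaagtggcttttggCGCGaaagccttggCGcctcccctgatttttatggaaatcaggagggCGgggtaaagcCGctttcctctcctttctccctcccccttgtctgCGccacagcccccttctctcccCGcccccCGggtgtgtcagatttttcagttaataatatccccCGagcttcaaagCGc
VPS41: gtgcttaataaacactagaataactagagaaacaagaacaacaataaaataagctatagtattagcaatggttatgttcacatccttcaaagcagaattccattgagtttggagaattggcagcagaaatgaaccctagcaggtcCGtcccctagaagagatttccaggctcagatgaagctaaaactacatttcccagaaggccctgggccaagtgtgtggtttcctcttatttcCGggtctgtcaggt
RBBP6: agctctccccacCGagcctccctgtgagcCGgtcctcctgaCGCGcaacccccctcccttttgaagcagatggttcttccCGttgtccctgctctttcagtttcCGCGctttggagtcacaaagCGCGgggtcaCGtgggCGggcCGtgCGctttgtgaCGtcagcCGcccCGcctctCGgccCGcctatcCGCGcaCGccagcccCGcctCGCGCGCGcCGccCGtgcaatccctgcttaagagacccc

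The QTGAL promoter (chr17:83051771-83052020, minus strand) is 77.6% C+G with 32 CpG dinucleotides, and its peak had a signal of 2637 in WT and 263 in deltaC (ratio -3.32). The TBCD promoter (chr17:82751815-82752064, plus strand), of a tubulin folding cofactor gene, is 76.8% C+G with 39 CpG and had signals of 1390 and 163 (-3.09). The MIDN promoter (chr19:1248333-1248582, plus strand) is 76.8% C+G with 25 CpG and had signals of 721 and 104 (-2.78). At the other end stood MYCN, a gene of the MYC family (chr2:15940300-15940549, plus strand, 57.2% C+G, 11 CpG), with 223 in WT and 386 in deltaC (0.79). VPS41, a vesicle-sorting gene, followed (chr7:38909192-38909441, minus strand, 41.6% C+G, 2 CpG) with 236 and 313 (0.41). RBBP6, which encodes an RB-binding ubiquitin ligase (chr16:24539316-24539565, plus strand, 68.0% C+G, 28 CpG), had 241 and 308 (0.35). The low promoters lay in peaks with WT signals of 721 to 2637 and the high ones in peaks with 223 to 241. The low ones are all rich in CpG, while the high ones range from CpG-poor to CpG-rich. These promoters were picked by their ratios and are shown as examples.

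Across the genome, deltaC signal stood at about 0.524 of the WT signal as deposited, and most peaks lay near that value. WT signal had a median of 371 (quartiles 258 and 554, highest 3567), and deltaC signal a median of 201 (129 and 305, highest 2037). The median ratio was -0.93 (quartiles -1.32 and -0.59, 5th and 95th percentile -2.21 and -0.03, SD 0.88). The 95% interval of the median from order statistics ran from -0.94 to -0.93. Such intervals, here and below, treat peaks as independent and cover no difference between cultures. Signal was lower in deltaC at 28498 peaks (95.5%). It was at or below 0.5 of WT at 13395 peaks (44.9%), and at or above 2-fold at 125 (0.419%), of which 124 bear deltaC names. Between -1.5 and -0.5 lay 18855 peaks (63.2%). Peaks named for WT had a median of -0.95 and those named for deltaC 0.31.

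This level rests on the authors' scaling. The deltaC column sums to 0.531 of the WT column over all peaks. With both columns scaled to the same total the median was -0.02, a shift of 0.91, and 51.6% of peaks lay below 0 in place of 95.5%. At or below -1 were then 8.01% of peaks and at or above 1 were 3.47%. Scaling to equal totals takes out any difference shared by all peaks, so a median near 0 follows from it. Whether deltaC bound less across the genome therefore rests on the deposited scaling and cannot be decided here. In what follows, lower and higher are meant against the other peaks. Counted that way, 2281 peaks (7.64%) lay 2-fold or more below the median ratio and 1112 (3.73%) 2-fold or more above it.

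**Figure D1:**
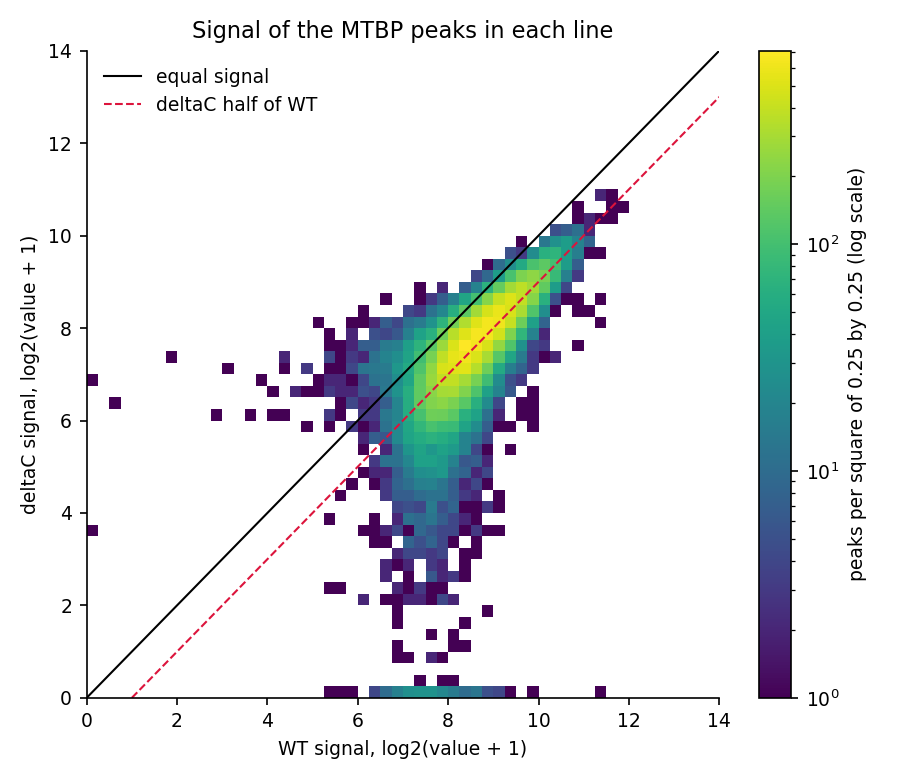
Signal of each of the 29848 peaks in WT (x axis) and deltaC (y axis), both as log2(value + 1), with colour for the number of peaks in each square of 0.25 by 0.25 on a log scale. Most peaks lie along the dashed line of deltaC at 0.5 of WT, the cloud narrows toward high signal, and the row at the bottom is the 186 peaks with a deltaC value of 0.

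By mean signal, the median ratio was nearly level once peaks of low signal were passed, and its spread narrowed. By decile of mean log2 signal, which both lines enter alike, the median was -1.77 in the lowest decile, and -1.14 and -0.96 in the next ones. It lay between -0.93 and -0.84 in all deciles from the fourth on. A very low deltaC value also lowers the mean, so such peaks gather in the lowest decile. That decile had median signals of 174 in WT and 53.5 in deltaC, against 156 and 91.3 in the lowest decile of WT signal. How much of the drop at low signal comes from this was not tested. The SD fell from 1.94 in the lowest decile to 0.35 in the highest. In the top decile the quartiles were -1.10 and -0.63, though single strong peaks described below lay far lower. There, the median WT signal was 963, the median deltaC signal 526 and the median ratio -0.86.

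Deciles of 1 line alone tilt the ratio by construction, since that line's value stands in it. By WT signal the median went from -0.75 in the lowest decile to -1.0 in the highest, and by deltaC signal from -2.08 to -0.73. By the authors' peak score it went from -0.82 to -1.02. Spearman's rank correlation of the ratio across peaks was -0.09 with WT signal, 0.50 with deltaC signal, 0.25 with mean signal and -0.09 with the score. All peaks share the same libraries, so these are descriptions over 29848 points and carry no p. The sign for strength therefore depended on the measure: negative by score or WT signal, positive by mean signal. Among peaks in the upper 3 quartiles of mean signal, the rank correlation was 0.04 with mean signal and -0.34 with WT signal.

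**Figure D2:**
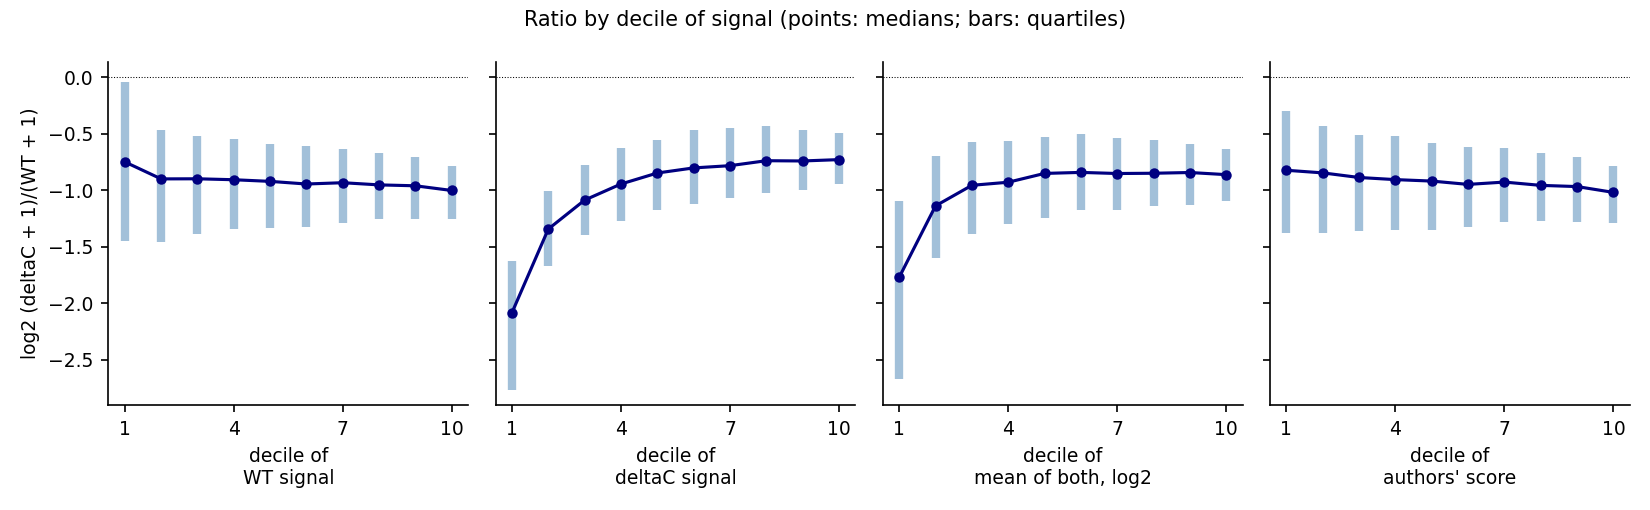
Median (points) and quartiles (bars) of the deltaC/WT ratio, as log2, in each decile of WT signal, deltaC signal, mean log2 signal and the authors' score. The medians drop gently by WT signal, from -0.75 to -1.0, rise steeply by deltaC signal, from -2.08 to -0.73, and level off by mean signal, while the bars shorten toward strong peaks in each panel.

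Peak width left the median where it was. The narrowest decile (median width 472 bp) had a median ratio of -0.93 and the widest (2053 bp) -0.95, with all deciles between -0.96 and -0.92 and a rank correlation of -0.01. Narrow peaks were more scattered, with an SD of 1.34 in the narrowest decile and 0.62 in the widest. Width followed WT signal (rank correlation 0.75) more closely than deltaC signal (0.64). Among peaks of the same decile of mean signal, the widest quintile had lower ratios than the narrowest quintile, by -0.89 on average over the 8 deciles that held enough of both, with the same sign in all 8. The authors' score behaved likewise, at -0.83 over 7 deciles. Since nearly all peaks were named for WT, how far this follows from calling peaks in WT was not tested.

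H3K4me2, a histone mark of active promoters and enhancers, was measured by CUT&RUN in 2 libraries of the WT line, and its strength made little difference. Of the peaks, 29519 overlapped a peak of H3K4me2, and their median ratio went from -0.99 in the lowest decile of H3K4me2 fold enrichment (median fold 8.74) to -0.89 in the highest (46.6). The rank correlation was 0.04. Signal in both lines also rose along these deciles. WT signal had a median of 265 in the lowest and 454 in the highest, and deltaC signal 140 and 252. Among peaks of like mean signal the difference between the highest and lowest quintile of fold was -0.02, positive in 4 of 10 deciles, and it turned from 0.08 to -0.01 among peaks in the upper 3 quartiles of mean signal. The 329 peaks without H3K4me2 had a median ratio of -1.17 (order-statistic interval -1.31 to -1.05) and were weak and narrow, with a median WT signal of 190 and a width of 594 bp. Only 3 deciles of mean signal held enough of these peaks, and there the difference was 0.09 with 2 of 3 positive, so in those deciles they were not lower.

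Distance to the nearest start site had a weak relation with the ratio. Peaks under 0.5 kb from a start site (7904) had a median of -0.97, those at 0.5 to 1 kb -0.96, at 1 to 5 kb -0.96 and at 5 to 20 kb -0.95. Farther out it was -0.86 at 20 to 100 kb (7544 peaks) and -0.81 beyond 100 kb (717). The difference between peaks at 20 to 100 kb and those under 0.5 kb was 0.11, and 0.10 among peaks of like mean signal, where it was positive in 9 of 10 deciles. Peaks beyond 1 kb did not differ much by side: -0.90 upstream and -0.93 downstream.

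By the authors' location classes, promoter peaks (10363) had a median ratio of -0.97, peaks of enhancers and super-enhancers (5257) also -0.97, and all others (14228) -0.88. Among peaks of like mean signal, promoters and enhancers were each lower than the others by 0.09 in size and lower in 9 of 10 deciles, and promoters and enhancers differed from each other by less than 0.01. By annotation, the lowest medians were at transcription termination sites (-1.14, 475 peaks, interval -1.21 to -1.04) and in 3' UTR exons (-1.07, 216, -1.13 to -0.95). The interval of 3' UTR exons overlapped that of termination sites and that of the class of exons (-1.02 to -0.92). The highest median was in annotated repeats (-0.87, 6164). Introns stood at -0.93 (8366) and intergenic sequence at -0.91 (6168, interval -0.92 to -0.89), beside -0.93 for all peaks.

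Peaks were lower at initiation zones, the regions that the authors list from EdU-seq. That assay marks new DNA in cells released from G1 into S phase with hydroxyurea and aphidicolin, which hold forks near where they started. The 6860 peaks in a zone had a median ratio of -1.14 (order-statistic interval -1.15 to -1.12), and the 22988 outside -0.87 (-0.88 to -0.87), a difference of -0.26. Signal at or below 0.5 of WT was found at 59.7% of the peaks in zones and 40.4% of those outside. The WT signal was a little higher in zones (median 392 against 365) and the deltaC signal lower (184 against 206). Which EdU-seq libraries, WT or deltaC, gave the zones is not given in the sources used here.

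The difference was found across signal, class and arm. It was negative in 10 of 10 deciles of mean signal, with an average of -0.25. At promoters it was -0.27 (-1.17 in zones, -0.90 outside), at enhancers -0.20 (-1.11 and -0.91) and elsewhere -0.26 (-1.10 and -0.85). All 40 arms with 20 or more peaks on each side had the lower median in zones, from -0.42 on 5p to less than 0.01 in size on 6q and Xp, with a median of -0.21. Without 17q it was -0.25, and among peaks in the highest quartile of signal -0.22. The shift also faded with distance: outside zones the median was -1.06 within 10 kb of a zone, -1.01 at 10 to 50 kb, -0.92 at 50 to 200 kb, -0.83 at 200 kb to 1 Mb and -0.80 beyond 1 Mb. The median number of protein-coding genes within 500 kb fell along the same classes, from 14 in zones through 12, 12, 10 and 6 to 4 beyond 1 Mb, and its part in this gradient was not tested.

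Zones with higher scores held peaks with lower ratios, but which peaks or libraries the deposited average score was taken over is not given in the sources used here. Of the 468 zones with 5 or more peaks, 332 had a median ratio at or below -1, and the median over zones was -1.17. As 59.7% of single peaks in zones and 44.9% of all peaks lie at or below -1, many such zone medians follow from that share alone. Like groups of peaks outside zones were not counted. Ordered by the authors' average score and cut into 5 equal groups, from low to high, the zones had medians that went down: the median of the zone medians was -1.02, -1.13, -1.14, -1.23 and -1.28 (rank correlation -0.32 over the 468 zones). The lowest zone, at MYO15B (chr17:75560544-75651804, 6 peaks), had a median of -3.32, and the zone at STK11, a kinase and tumour suppressor gene (chr19:1152890-1257477, 6 peaks), -2.55. The highest was the zone at VSIG10 (chr12:118088827-118147018, 7 peaks) with -0.43. These zones were picked by their values.

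**Figure D3:**
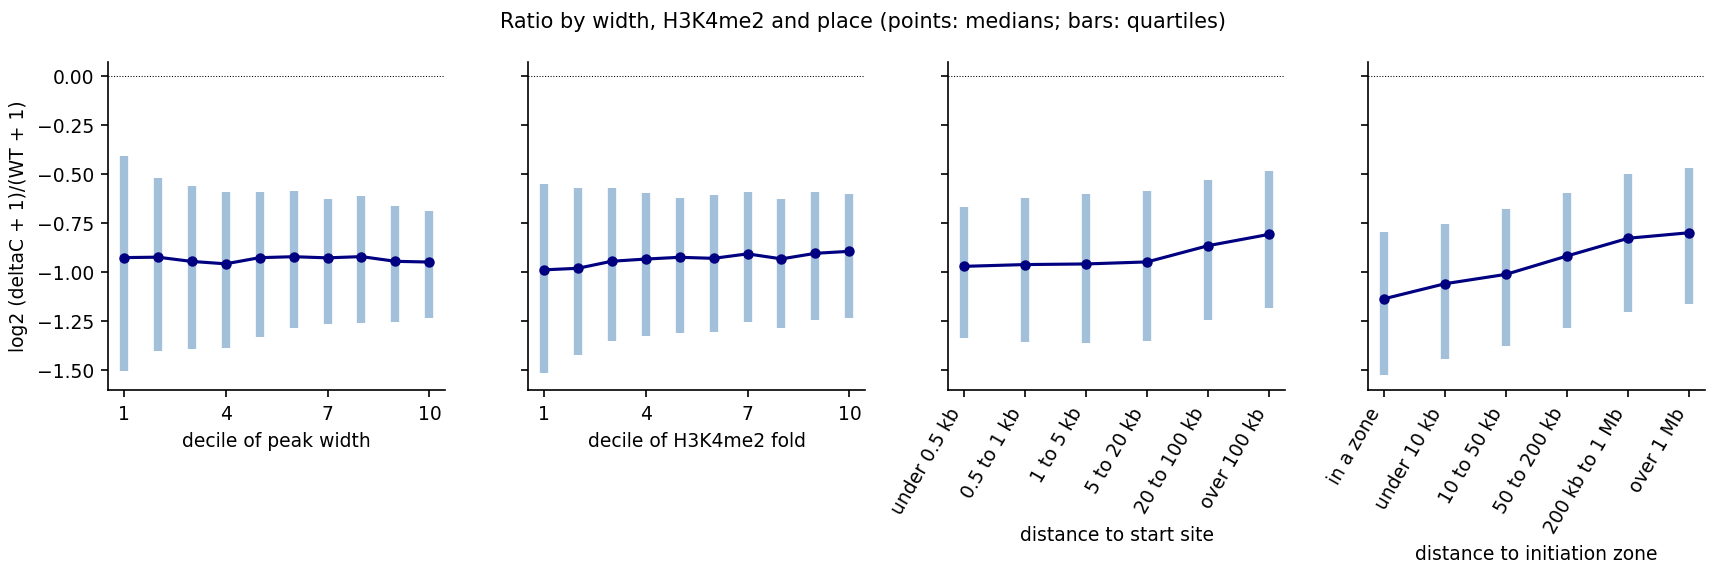
Median (points) and quartiles (bars) of the deltaC/WT ratio by decile of peak width, by decile of H3K4me2 fold, by distance to the nearest start site and by distance to the nearest initiation zone. Width and H3K4me2 leave the median between -0.99 and -0.89, and the steepest change is along the distance to a zone, from -1.14 in zones to -0.80 beyond 1 Mb.

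Zones lie among genes, and the ratio also went with gene density. Each peak was given the number of protein-coding genes centred within 500 kb of it. In the quintile of peaks with the fewest genes (0 to 4) the median ratio was -0.84, then -0.84, -0.88, -0.97 and, in the quintile with the most (17 to 76), -1.15. WT signal was nearly flat over these quintiles, with medians of 372 and 362 at the ends, while deltaC signal went from 219 to 170. Peaks in zones were lower than peaks outside in each of the 5 quintiles, by -0.12, -0.19, -0.18, -0.21 and -0.18. Conversely, the ratio went down with gene number both in zones (rank correlation -0.20) and outside (rank correlation -0.12). Outside zones gene number also fell with distance to a zone, so these values do not separate gene number from nearness to a zone.

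Over windows of 5 Mb the pattern was plainer. The 467 windows with 20 or more peaks had a rank correlation of -0.60 between their median ratio and their number of protein-coding genes. For the window's median WT signal the rank correlation was -0.09 and for deltaC signal -0.48. From the quintile of windows with the fewest genes to that with the most, the median of the window medians was -0.80, -0.83, -0.88, -0.93 and -1.07. It was not a matter of promoters alone: within promoter peaks the rank correlation was -0.51 (196 windows) and within peaks of the class others -0.48 (333 windows). Windows with more genes also held more MTBP peaks, with a median of 90 in the highest quintile against 34.5 in the lowest, and the window median had a rank correlation of -0.43 with the number of peaks.

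The lowest windows were the last 2 of chromosome 17, at 80 to 85 Mb (141 peaks, median -2.0, 78 genes) and 75 to 80 Mb (179 peaks, -1.40, 90 genes), and the first 5 Mb of chromosome 19 (146 peaks, -1.39, 201 genes). The highest lay at 100 to 105 Mb of chromosome 13 (24 peaks, -0.46, 15 genes), 105 to 110 Mb of chromosome 8 (34 peaks, -0.53, 16 genes) and 110 to 115 Mb of chromosome 7 (24 peaks, -0.54, 15 genes). In the 80 to 85 Mb window of chromosome 17 the median WT signal was 391, above that of the genome, and the median deltaC signal was 104.

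Of the 41 arms with 50 or more peaks, the lowest medians were on 19p (-1.23, 426 peaks), 17q (-1.23, 1210) and 17p (-1.17, 341), and the highest on 6q (-0.77, 962), 4q (-0.78, 1008) and 3q (-0.85, 1021). The order-statistic intervals of 19p (-1.30 to -1.16), 17q (-1.27 to -1.20) and 17p (-1.25 to -1.08) overlapped one another, as did those of 6q (-0.80 to -0.74) and 4q (-0.83 to -0.76), and the low and the high group lay far apart. Between 4q and 3q the intervals overlapped slightly. The interval of 3q (-0.89 to -0.81) held the medians of many other arms, from 5q (-0.85) to 13q (-0.89). The intervals treat peaks as independent, though neighbouring peaks shared the ratio weakly, so they are no test between arms. Arms accounted for 2.59% of the variance of the ratio, and 1.77% without 17q, so peaks within an arm differed far more than arms did. Windows of 5 Mb accounted for 7.63%. In the highest quartile of mean signal, where the SD was 0.39, the shares were 5.19% for arms and 19.1% for windows. These shares were not adjusted for the number of groups. A share rises with more groups and with fewer peaks, also in random order. Windows against arms, and the highest quartile against all peaks, are therefore not on a like footing. X had medians of -0.92 on Xp (163 peaks) and -0.95 on Xq (94), close to the genome's.

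**Figure D4:**
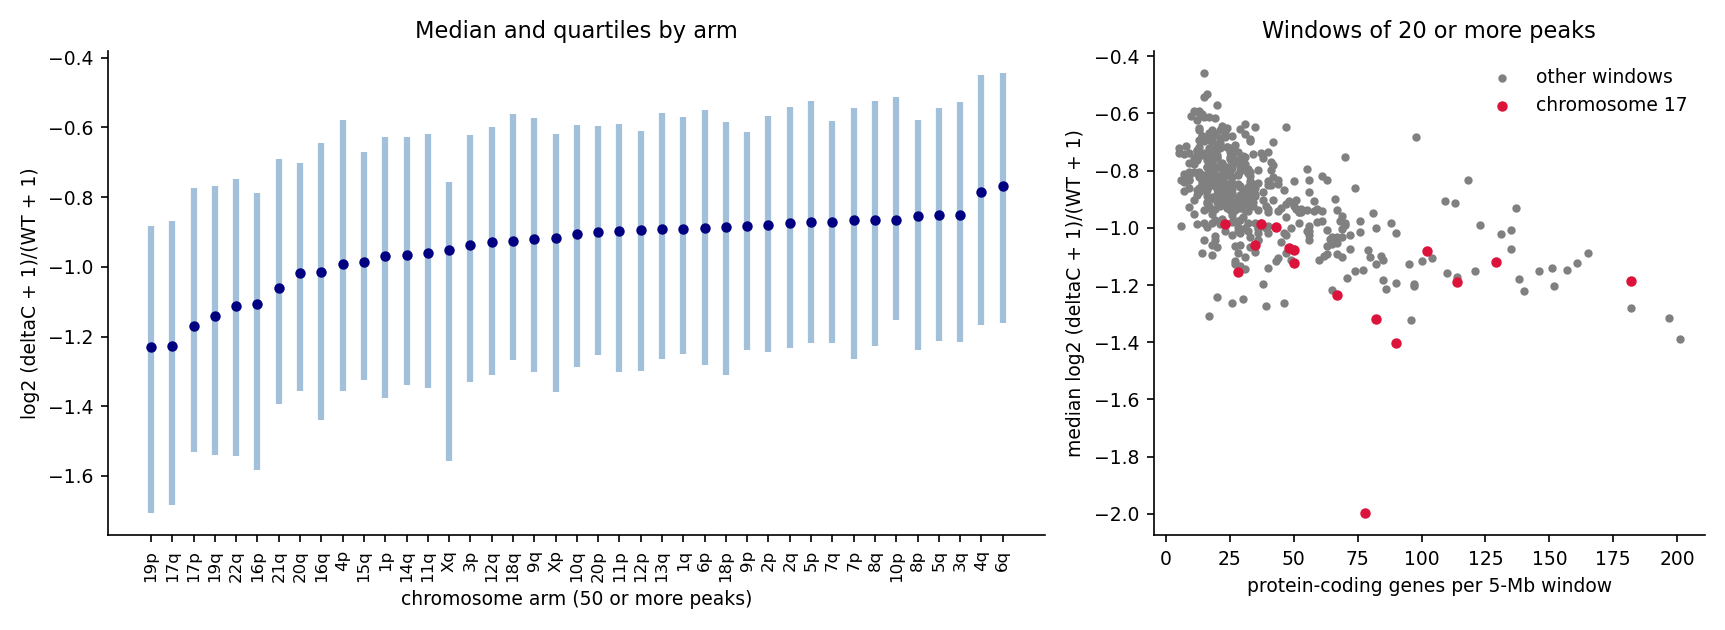
Left, median (points) and quartiles (bars) of the deltaC/WT ratio on each arm with 50 or more peaks, in order of the median, from -1.23 on 19p to -0.77 on 6q. Right, the median ratio of each of 467 windows of 5 Mb against its number of protein-coding genes, with chromosome 17 in red: windows with more genes lie lower, and the window at -2.0 is the end of 17q.

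Peaks near the ends of arms were lower than those further in. Within 2 Mb of the end the median was -1.17 (1072 peaks), at 2 to 5 Mb -1.06, and beyond 50 Mb -0.88 (9034). Without 17q these were -1.11, -1.03 and -0.87. Of the 37 arms with 20 or more peaks within 5 Mb of the end, 29 had a lower median there than over the rest of the arm, with a median difference of -0.12. On 17q the difference was -0.70 (-1.87 against -1.17). Gene number also goes up toward many arm ends, and how far it accounts for the difference was not tested. Of the 186 peaks with a deltaC value of 0, 24 (12.9%) lay on 17q, which held 4.05% of all peaks.

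Neighbouring peaks shared the ratio, but weakly. Over 29806 adjacent pairs on the same arm, Pearson's r was 0.12, the rank correlation was 0.13 and 54.7% of pairs lay on the same side of the median. It was 0.12 for pairs 2 kb or more apart, 0.10 with each arm's median taken out, 0.11 with the median of each signal decile taken out and 0.10 without 17q. The signals themselves were shared less: r was 0.03 for log2 WT signal and 0.07 for log2 deltaC signal. Among peaks in the highest quartile of mean signal, where the ratio is less scattered, r was 0.18. In terms of level, neighbours of peaks in the lowest quintile of the ratio (median -1.78) had a median of -1.03, and neighbours of peaks in the highest quintile (median -0.26) had -0.84.

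The sharing faded slowly with distance. For all pairs on an arm, r was 0.16 under 2 kb (1269 pairs), 0.11 at 2 to 5 kb, 0.13 at 5 to 20 kb, 0.11 at 20 to 100 kb and 0.10 at 100 to 500 kb (213039 pairs). It was 0.06 at 0.5 to 2 Mb, 0.03 at 2 to 10 Mb and 0.02 beyond 10 Mb. In the highest quartile of signal the values at the same distances from 2 kb on were 0.19, 0.23, 0.20, 0.18, 0.11, 0.05 and 0.02. With each arm's median taken out, r over all peaks was 0.07 at 100 to 500 kb and 0.03 at 0.5 to 2 Mb. It was then 0.01 at 2 to 10 Mb and -0.005 beyond 10 Mb. Past 500 kb the sharing was thus weak, and part of it lay in the level of whole arms. It was stronger among strong peaks, but those values were not adjusted for arm. A peak enters many pairs, so the pairs are not independent points.

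**Figure D5:**
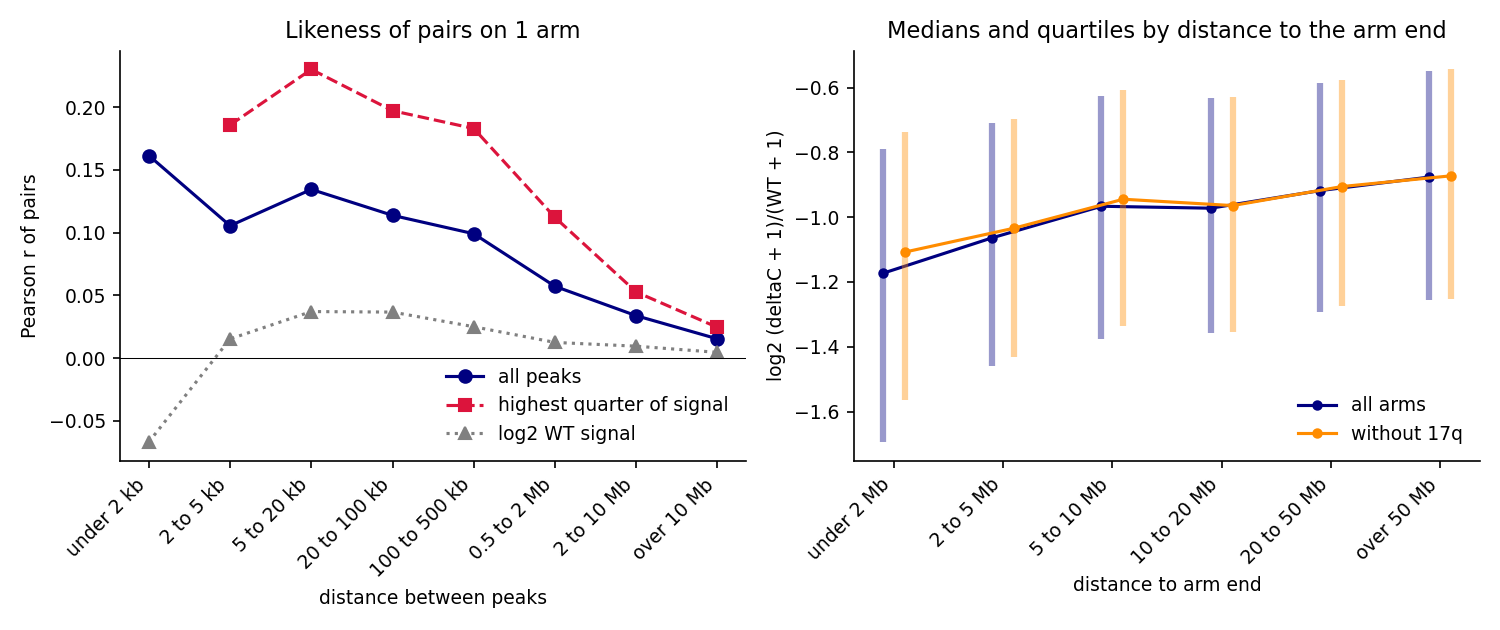
Left, Pearson's r between the ratios of pairs of peaks on the same arm by the distance between them, for all peaks, for the highest quartile of signal (from 2 kb on) and for log2 WT signal of all peaks: r for the ratio stays near 0.10 to 0.16 up to 500 kb and falls to 0.02 beyond 10 Mb. Right, median (points) and quartiles (bars) of the ratio by distance to the arm end, with and without 17q, from -1.17 (without 17q -1.11) within 2 Mb to -0.88 (-0.87) beyond 50 Mb.

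There were 459 runs of 5 or more adjacent peaks at or below -1, with 3126 peaks in them. As 44.9% of all peaks lie past that level, many such runs arise from that share alone, and how many was not computed. The longest were on 17q: 63 peaks over 1482 kb (chr17:80625253-82106954, median -1.95), 42 peaks over 702 kb (chr17:82494089-83196376, median -2.88) and 22 peaks over 393 kb (chr17:48100358-48493253, median -1.59). In the 42-peak run the median WT signal was 539 and the median deltaC signal 85.6. At or above 2-fold, where only 0.419% of peaks lie, the longest run held 2 peaks (chr2:106648872-106702148, median 1.82); the counts on either side cannot be compared at such unequal shares.

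At or below -3 lay 593 peaks (1.99% of all), most of them weak, with a median WT signal of 217 and a median deltaC signal of 10.0. They include the 186 peaks with a deltaC value of 0, whose ratios rest on the WT signal and the pseudocount. Of the neighbours of the 593 peaks, 6.76% were also at or below -3, above the 1.99% of all peaks. Since such peaks are rare, 523 still had no such neighbour, and 30 runs of 2 or more held the other 70. Only 83 had a WT signal above the median of all peaks. They lay in zones at 32.2%, against 23% of all peaks, and 61 were on 17q. The 125 peaks at or above 2-fold were weak too, with median signals of 70.7 in WT and 191 in deltaC, and 71.2% were of the class others (47.7% of all peaks) and 8% in zones. Their neighbours had a median of -0.85, against -1.09 for neighbours of peaks at or below -3.

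The strong peaks with the lowest ratios lay together. Of the 10 lowest among peaks at or above the median of mean signal, 8 were on 17q, 5 of them in TBCD and the rest at MYO15B, QTGAL and METRNL, a secreted-factor gene. Their WT signals ran from 958 to 2637 and their deltaC signals from 81.0 to 365, and the ratios ran from -3.56 to -2.80. A high WT signal follows from choosing low ratios above a floor on mean signal. The TBCD peak at chr17:82888651-82890665, in an intron and of the enhancer class, had 2583 in WT and 365 in deltaC. The METRNL peak (chr17:83083201-83087214) had 2335 and 334. Their neighbours were low as well: at the 8 peaks of 17q, the ratios on either side ranged from -9.27 to -2.03. The TBCD peaks at -3.35 and -2.82 are each other's neighbours, so part of this follows from the choice. The value of -9.27 came from a deltaC value of 0, so its size rests on the WT signal and the pseudocount. Neighbour ratios of -8.62, -8.19 and -7.89 are likewise reached only with a deltaC value near 0. The other 2 were at OTUD3, a deubiquitinase gene (chr1:19911611-19912677, 1009 and 141, ratio -2.83), and at an intergenic site with KDM7A, a histone demethylase gene, as the nearest protein-coding gene (chr7:140252756-140254053, 958 and 106, -3.16). The neighbours of the KDM7A peak were at -0.50 and -0.79, so its low value was not shared by them.

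The 10 highest among peaks at or above the median of signal had WT signals of 169 to 251 and deltaC signals of 350 to 483, and a low WT signal follows here from the choice. Of them, 8 were of the class others, 2 at promoters and none at enhancers, and 1 was in a zone. The highest was an intergenic peak 167166 bp from PREP on 6q (chr6:105569589-105570906) with 169 in WT and 467 in deltaC (1.46). The MYCN promoter peak described above was among them (chr2:15939900-15940843), with another at chr2:16104014-16104942, 157474 bp from the gene (205 and 358, ratio 0.80). The neighbours of these 10 peaks were at -1.90 to 0.04, so the high values were not shared.

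The 5 peaks with the strongest WT signal kept to the genome's ratio, with 1 exception. The peaks at TTC7A (3567 in WT, 1673 in deltaC, ratio -1.09), CYP1B1, a cytochrome P450 gene (3161 and 1533, -1.04), PPM1B, a protein phosphatase gene (3116 and 1362, -1.19) and B3GNT2 (2992 and 1727, -0.79) all lie on 2p. The exception was an intergenic peak near SLC14A2, a urea transporter gene (chr18:45166043-45168120), with 2769 in WT and a listed value of 0 in deltaC. The peak before it had a ratio of -0.64 and the peak after it -8.66, which is reached only with a deltaC value near 0. An exact 0 at a site this strong may not be a measured level, so no fold is given for it.

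Genes of replication themselves were read from lists, with the strongest peak within 1 kb of either end of a gene standing for it. Of 19974 protein-coding genes, 8553 had a peak, with a median ratio of -0.97 and 47.6% at or below -1. Of 15 licensing genes 12 had one, with a median of -0.98 and 5 at or below -1: geminin (GMNN, -1.43), an inhibitor of relicensing, CDC6 (-1.35), the MCM loader, ORC3 (-1.22), MCM3 (-1.13) and MCM4 (-1.01). Of 23 helicase activation genes 17 had one, with a median of -0.78 and 6 at or below -1. The lowest was GINS1, a GINS subunit (252 in WT and 12.7 in deltaC, -4.20), followed by POLE2 (-1.80), WDHD1 (-1.70), POLE3 (-1.52), POLE4 (-1.10) and CDK2 (-1.01). The MTBP gene's own promoter peak had 408 in WT and 262 in deltaC (-0.64), TICRR had 370 and 233 (-0.66) and CDC45 had 392 and 305 (-0.36). MCM10, which acts at helicase firing, was the only 1 of the 17 above 0 (289 and 328, 0.18).

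Of 20 fork and polymerase genes 18 had a peak, with a median of -1.04 and 10 at or below -1. RFC1, the large clamp loader subunit (324 and 62.7, -2.35), POLD3 (-2.20), POLD2 (-2.11), POLA2 (-1.74), POLA1 (-1.72), RFC4 (-1.24), TIPIN (-1.08), PCNA (-1.06), RIF1 (-1.04) and PRIM1 (-1.04) made up the 10. Their shares at or below -1 were 41.7%, 35.3% and 55.6%, on either side of the 47.6% of all genes with a peak, and lists this small do not set them apart.

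Of 26 genes of the intestinal epithelium 12 had a peak, with a median of -1.15 and 8 (66.7%) at or below -1, beside 47.6% of all genes with a peak. With a 5-kb window it was 11 of 20 (55%), beside 47.2% of all genes, and a list this small is not set apart by either. The 8 were GATA6 (-1.91) and CDX2 (-1.66), both transcription factor genes, the adhesion gene EPCAM (-1.46), TSPAN8 (-1.35), ELF3 (-1.35), the keratin genes KRT19 (-1.16) and KRT8 (-1.15), and ESRP1 (-1.08). KRT20, also a keratin gene, had 25 in WT and 90 in deltaC (1.80), the only listed gene at or above 2-fold, where 23 of the 8553 genes with a peak were. With a 5-kb window no gene of this list was at or above 2-fold, and the highest stood at 0.19. Wnt targets had a peak at 12 of 19 (median -1.03, 6 at or below -1, or 50%): LEF1 (-1.60), TNFRSF19 (-1.46), CCND1 (-1.36), AXIN2 (-1.36), RNF43 (-1.18) and ZNRF3 (-1.10), of which AXIN2, RNF43 and ZNRF3 are feedback inhibitors of the pathway. Housekeeping genes had a peak at 12 of 15 (median -0.88, 5 or 41.7% at or below -1, among them ACTB at -2.36, PPIA at -1.73, PGK1 at -1.09 and YWHAZ at -1.05). Of the 12 markers of other cell types 3 had a peak: CD3E (-1.35), RBFOX3 (-1.09) and SNAP25 (-0.54). The other 9 of that list had none, as had 14 of the 26 epithelial genes.

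Promoter sequence went with the ratio only slightly. Of 34961 RefSeq promoter windows (250 bases before to 50 after the start site), 8786 lay inside 5946 peaks. Their median C+G share was 65.3%, against 58.7% over all windows. From the quintile of peaks with the lowest C+G to that with the highest, the median ratio was -0.94, -0.96, -0.97, -0.97 and -1.04 (rank correlation -0.07), and among peaks of like signal the highest quintile was lower by 0.08 in size, with 1 of 10 deciles positive. Of 8 motifs searched on both strands, the largest differences between peaks with and without were 0.07 for the cAMP response element (TGACGTCA, in 217 peaks and 1.85% of all windows) and 0.05 for the NRF1 motif (188 peaks and 1.24%). For the CCAAT box (CCAAT, 2579 peaks, 34.6%) it was -0.04. The GC box (GGGCGG, 45% of all windows), ETS (CCGGAA, 17.3%), AP-1 (TGANTCA, 7.68%), TATA box (TATAAA, 12%) and the string searched as CTCF core (CCCTC, 71.3%) differed by 0.02 or less in size. That last string is short and lies in most windows, so it says little about CTCF sites. Each motif was counted on its own, whether or not it overlapped another.

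Set together by least squares, WT signal, width, H3K4me2 fold, distance, location class and arm left most of the ratio undescribed. They accounted for 4.62% of its variance, of which arm alone gave 2.59%, H3K4me2 0.771% and each of the others less than 0.2%. With zone and gene number added it was 6.03%. In the highest quartile of signal (7462 peaks) the same terms gave 28.6%, and 31.4% with zone and gene number. There zone alone gave 5.60%, gene number 5.66%, arm 5.19%, and WT signal, which stands in the ratio, 21.1%. With mean log2 signal in place of WT signal over all peaks the terms gave 36.3%, of which signal alone gave 20.3%. Both values of the ratio stand in mean signal, and a very low deltaC value lowers both, so this share is partly built in. None of these shares was adjusted for the number of terms.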

How the data were processed

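The deposited list gives, per peak, the authors' signal in WT and deltaC and a peak score. The H3K4me2 list gives the authors' fold enrichment (ratio over background), and a zone list the authors' average score. Per the submitters' processing notes, Trim Galore, Bowtie2, MACS2 and HOMER were used with hg38. The sources used here do not give versions, the scaling of the signal columns or how libraries were pooled, and depth is unknown. Distances, annotations and location classes are the authors'.

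With Python 3.11.15, numpy 2.4.6 and pandas 2.3.3, the log2 ratio (pseudocount 1) was computed from the deposited signal without a filter on low values. Overlap meant 1 bp or more. Genes and promoters came from RefSeq (GRCh38.p14). Arm borders were set from general knowledge of hg38 centromeres and checked to lie in stretches without peaks of at least 2.89 Mb. Promoters of chromosome 8 were not used for the printed sequences. The calculations were tested on simulated data. Named peaks were, at or above the median of mean log2 signal, the 10 lowest and 10 highest ratios, the 5 highest WT signals, the 3 arms and windows at each end, the 3 longest runs, and list genes past 2-fold, of which 1 is not reported here; zones and other genes named were chosen after their values were seen. The members and lists were chosen with earlier results of these data known.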

Additional observations from a re-analysis of the deposited data

How the results depend on the processing

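Each result was recomputed under 118 combinations of result and setting: 82 stayed close to the reported value, 29 moved and 7 changed sign. Close meant a change under 0.1 for medians of groups and their differences, 0.05 for correlations and 5 percentage points for shares of variance. For the level and the shares past 2-fold it meant within the 95% interval. Some results are smaller than these limits, so the count does not measure stability. The arm share counted as close at 7.53% for deltaC-named peaks, against 2.59% as reported. The settings without 17q, for the highest quartile of signal, with the ratio held between -2 and 2, by gene density and with zone and genes as terms were chosen after seeing the data. No paired analysis was possible because the columns carry 1 pooled value per line and no replicate number. For the same reason no value without a replicate was computed.

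The median level (-0.93 as reported) was -0.92 with a pseudocount of 5 (43.7% of peaks at or below -1), -0.86 in the upper 3 quartiles of signal (38.3% at or below -1, 0.0536% at or above 1), -0.95 for WT-named peaks (46.2% and 0.00345%), 0.31 for deltaC-named peaks (0.456% and 14.1%), -0.0221 at equal totals (8.01% and 3.47%), -0.0781 when centred on the highest quartile of signal (8.79% and 2.95%) and -0.92 without 17q (44.0% at or below -1). The rank correlation with WT signal was -0.34 in the upper 3 quartiles, -0.0173 for WT-named and -0.65 for deltaC-named peaks. The rank correlation with mean signal was 0.0381, 0.31 and -0.35 in the same order, and -0.0938 with the score in its place. The rank correlation with width was -0.15 in the upper 3 quartiles and 0.0422 for WT-named peaks. The H3K4me2 difference was -0.0139 in the upper 3 quartiles and -0.33 for deltaC-named peaks. Those peaks also had a zone difference of -0.12 and a difference of 17q from the other arms of 0.0417 (-0.31 as reported). The joint terms gave 36.3% with mean signal. Adjacent r was 0.176 in the highest quartile of signal. With a 5-kb window the median was -1.05 for housekeeping genes and -0.81 for markers of other cell types. At equal totals and when centred, the level moves by construction. The cause of the other changes was not tested.

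Leaving aside deltaC-named peaks, the zone difference lay between -0.26 and -0.18 under the other settings. Low signal limits single peaks most, as the spread by signal shows.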
